A study of Mus musculus with 6 samples.

Results

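Cholesterol and fatty acid synthesis genes were followed in C2C12 cells, a mouse skeletal muscle line, with and without knockdown of Cd36, the membrane receptor through which muscle cells take up long-chain fatty acids. The set holds 34 genes, named from textbook pathways as enzymes of the mevalonate, sterol and lipogenic pathways and as regulators of SREBP, and found by their symbols among the 55450 genes of the deposited table. All 34 had a mean of at least 1 FPKM (fragments per kilobase of gene, scaled to sequencing depth), the level at which a gene was tested, so that 34 of 11796 tested genes are described. Levels were measured by RNA sequencing of polyadenylated RNA in 6 samples. In 3 samples the cells carried small interfering RNA against Cd36 (siCD36), and in the other 3 a negative control duplex (siCont). Both were given at 20 nM and the cells were used 72 h later. The labels name the cells as myoblast of strain C57BL/6, whereas the study's methods speak of myotubes. Neither the labels nor the methods state which of the study's Cd36 duplexes each sample received, or whether the 3 samples of a group came from separate cultures. The p-values therefore rest on how far these samples vary, and that variation may be technical.

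SREBPs, encoded by Srebf1 and Srebf2, are transcription factors made as membrane proteins of the endoplasmic reticulum. When membrane cholesterol is low, the escort protein SCAP carries them to the Golgi, where proteases release the active part, which enters the nucleus and binds sterol regulatory elements beside its target genes. When sterols are plentiful, INSIG proteins hold SCAP back and the targets fall. SREBP-2 acts mainly on cholesterol synthesis, and the SREBP-1c form of SREBP-1 on fatty acid synthesis, which polyunsaturated fatty acids are known to restrain. In skeletal muscle SREBP-1c is known as a target of insulin.

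The knockdown was present in every siCD36 sample. Cd36 had 38, 32 and 30 counts with siCD36 and 1010, 1129 and 1103 counts with siCont, and its level was 2.61% of control. The libraries held 56907806 to 71878709 counts, of which the 34 genes took 0.291% to 0.314% with siCD36 and 0.324% to 0.364% with siCont. The defining genes of differentiated muscle were present, with summed levels of 5530 to 7452 FPKM with siCD36 and 6713 to 8402 FPKM with siCont over 7 markers. The embryonic myosin Myh3 was the only 1 of the 7 with an adjusted p under 0.05, and was lower (log2 fold change −0.62, edgeR adjusted p = 0.0210). The other 6 were not called, and 2 of the 7 had a log2 fold change above 0. Of 5 markers of dividing or reserve myoblasts, 3 were tested and 2 were higher with siCD36, Myf5 (0.93, edgeR adjusted p = 0.0274) and Ccna2 (1.02, edgeR adjusted p = 0.0166), with summed levels of 10.5 to 13.3 FPKM against 5.38 to 7.03 FPKM. Pax7, which defines muscle stem cells, was at most 0.0784 FPKM in any sample. No marker of adipocytes (6 listed) or hepatocytes (5 listed) reached the level for testing, and 4 of each list had no counts in any sample. None of 6 macrophage markers reached it either, with summed levels of 1.55 to 3.21 FPKM with siCD36 and 1.22 to 2.46 FPKM with siCont. The part of these shifts in the results below was not tested. In bulk RNA, fewer cells of a type and less RNA per cell cannot be told apart.

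The promoters of 3 members are printed. These members are an entry enzyme of the mevalonate pathway (Hmgcs1), a sterol enzyme with level expression (Cyp51) and the member called lower (Dhcr7). The sequences are the 250 bases before the RefSeq start site on GRCm38.p6, 5′ to 3′ on the strand of the gene. Capitals mark the letters of 4 motifs on either strand, the sterol regulatory element (SRE) core TCACNCCAC, the E-box CACGTG, the NF-Y box CCAAT and the Sp1 box GGGCGG. No matches overlap in the printed windows. NF-Y and Sp1 are known to bind beside SREBP at many sterol genes.
Hmgcs1, chr13:119690101-119690350, plus strand: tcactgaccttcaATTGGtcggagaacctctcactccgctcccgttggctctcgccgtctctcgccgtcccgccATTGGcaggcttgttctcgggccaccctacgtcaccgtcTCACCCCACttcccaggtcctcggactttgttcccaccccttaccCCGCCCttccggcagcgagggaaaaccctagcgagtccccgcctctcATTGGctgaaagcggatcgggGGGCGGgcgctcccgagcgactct
Cyp51, chr5:4104698-4104947, minus strand: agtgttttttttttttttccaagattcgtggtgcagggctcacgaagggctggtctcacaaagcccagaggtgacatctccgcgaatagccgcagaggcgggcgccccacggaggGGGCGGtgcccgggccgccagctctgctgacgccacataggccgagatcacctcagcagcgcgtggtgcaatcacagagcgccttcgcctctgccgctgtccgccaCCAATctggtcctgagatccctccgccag
Dhcr7, chr7:143822917-143823166, plus strand: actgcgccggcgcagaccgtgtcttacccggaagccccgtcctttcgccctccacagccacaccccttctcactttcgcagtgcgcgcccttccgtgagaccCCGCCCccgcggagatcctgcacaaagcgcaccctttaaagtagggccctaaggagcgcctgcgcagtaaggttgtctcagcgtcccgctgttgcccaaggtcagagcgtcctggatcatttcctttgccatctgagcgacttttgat

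Counted from 1 at the 5′ end, the Hmgcs1 window held the SRE core at bases 114 to 122, with NF-Y boxes at bases 14 to 18, 75 to 79 and 206 to 210 and Sp1 boxes at bases 159 to 164 and 227 to 232. The Cyp51 window held an Sp1 box at bases 116 to 121 and an NF-Y box at bases 222 to 226. The Dhcr7 window held an Sp1 box at bases 103 to 108 and none of the other 3 motifs. Windows were matched for 27 of the 34 genes, 26 of them starting within 250 bases of the start of the gene as annotated. No window was available for Fdps, Fdft1, Sqle, Stard4, Scd1, Scd2 and Fads1. Among these 26, the NF-Y box was present in 19 (73.1%, against 33.9% of 32851 RefSeq windows of this length) and the Sp1 box in 20 (76.9%, against 32.7%). The E-box was found in 3 (11.5%, against 6.02%), in the windows of Insig1, Hsd17b7 and Sc5d. The strict SRE core was in 1 (3.85%, against 1.05%), that of Hmgcs1. The 26 are 1 window for each expressed gene, whereas the 32851 are all windows, of genes tested here or not. The shares are thus not like for like, and whether they are particular to the set was not tested. A match of letters describes a window and is not a measured binding site.

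With Cd36 knocked down, the median member stayed near its control level, and 1 of 34 genes passed the test. The sum over the 34 genes was lower, at 3052 ± 74.7 CPM with siCD36 and 3450 ± 209 CPM with siCont (SD, n = 3 each). These sums did not overlap, but they overlapped with Scd1 and Scd2 left out. Dhcr7, the enzyme of the last step of cholesterol synthesis, fell to 67.5% of control. No member passed the test in the higher direction, which does not exclude a rise. Of all genes tested with edgeR, 2.20% were higher with siCD36 (260 genes) and 3.06% lower (361 genes), so that 0 of 34 and 1 of 34 (2.94%) lie near the share among all genes. The log2 fold change, siCD36 against siCont, was below 0 for 20 members and above 0 for 14, with a median of −0.02 beside 0.00277 over all genes tested. It ran from −0.91 for Scd2 to 0.57 for Elovl6, and 31 members (91.2%) lay within 0.5 of 0 on this scale, as did 87.8% of all genes. An unadjusted p under 0.05 was reached by 4 members (11.8%, Dhcr7, Insig2, Acss2 and Stard4), against 25.4% of all genes. The samples of the groups did not overlap for 6 members (17.6%), against 32.4% of all genes. These were Srebf1, Srebf2, Insig2, Dhcr7 and Scd2, lower with siCD36, and Stard4, higher.

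**Figure D1:**
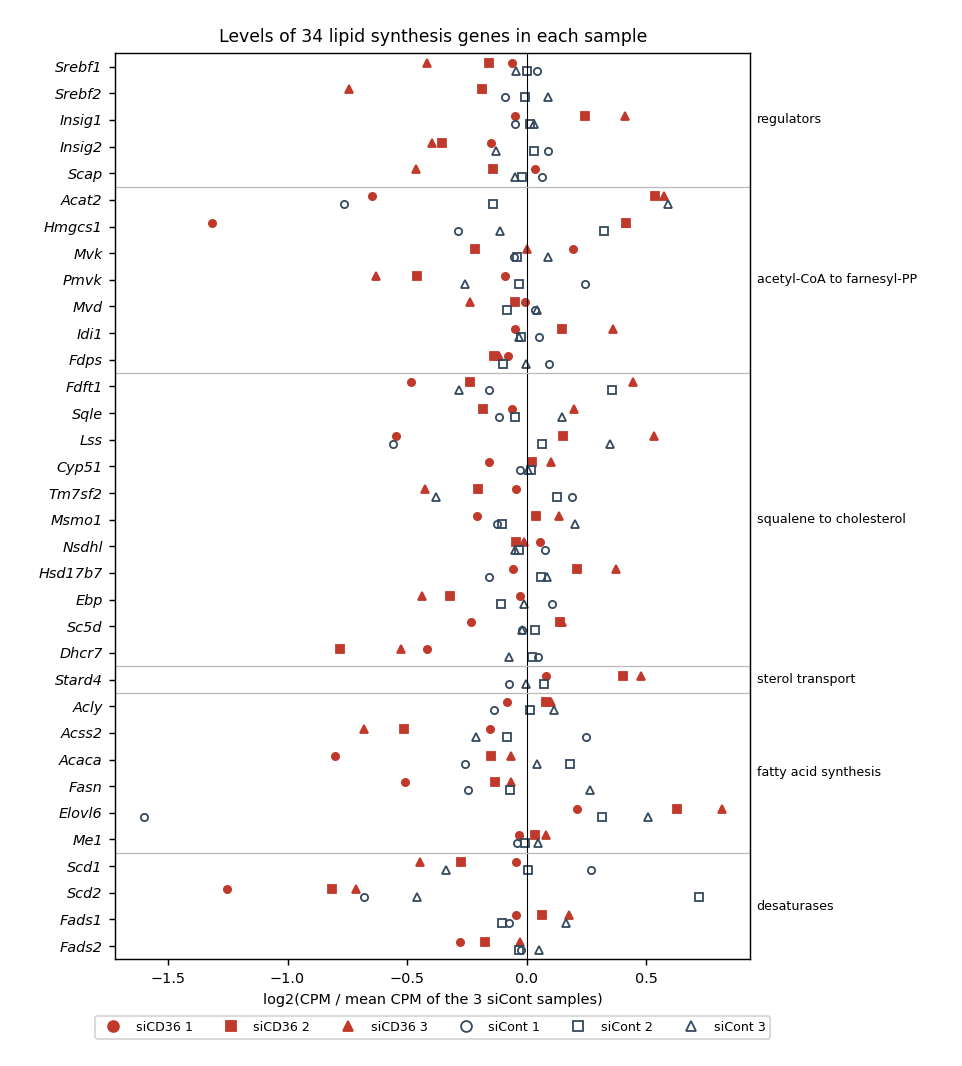
Level of each of the 34 genes in each sample, as the log2 ratio of its CPM (counts scaled to library size) to the mean of the 3 siCont samples (horizontal axis), with filled red marks for siCD36, open blue marks for siCont and circles, squares and triangles for replicates 1, 2 and 3. All siCD36 marks of Dhcr7 lie left of its siCont marks, most genes have interleaved marks near 0, and Hmgcs1, Acat2, Elovl6 and Scd2 are spread widely within a group.

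How precisely each gene was measured limits what this says. The 95% interval of the log2 fold change lay within 1 of 0 for 30 members (88.2%, against 84.5% of all genes) and within 0.5 for 15 (44.1%, against 48.7%). Acat2, Hmgcs1, Elovl6 and Scd2 had intervals that reach past 1 in at least 1 direction. A change of that size in that direction is thus not excluded for them. The tightest intervals belonged to Me1 (−0.11 to 0.17), Nsdhl (−0.16 to 0.16), Fdps (−0.27 to 0.05) and Cyp51 (−0.19 to 0.18). For these genes a change of 0.5 on the log2 scale lies outside the interval. Fdps shares 21.4% of its 100-base stretches with other genes and Me1 14.6%, so part of their counts may depend on how reads were assigned. Cyp51 shares 1.51% and Nsdhl none.

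**Figure D2:**
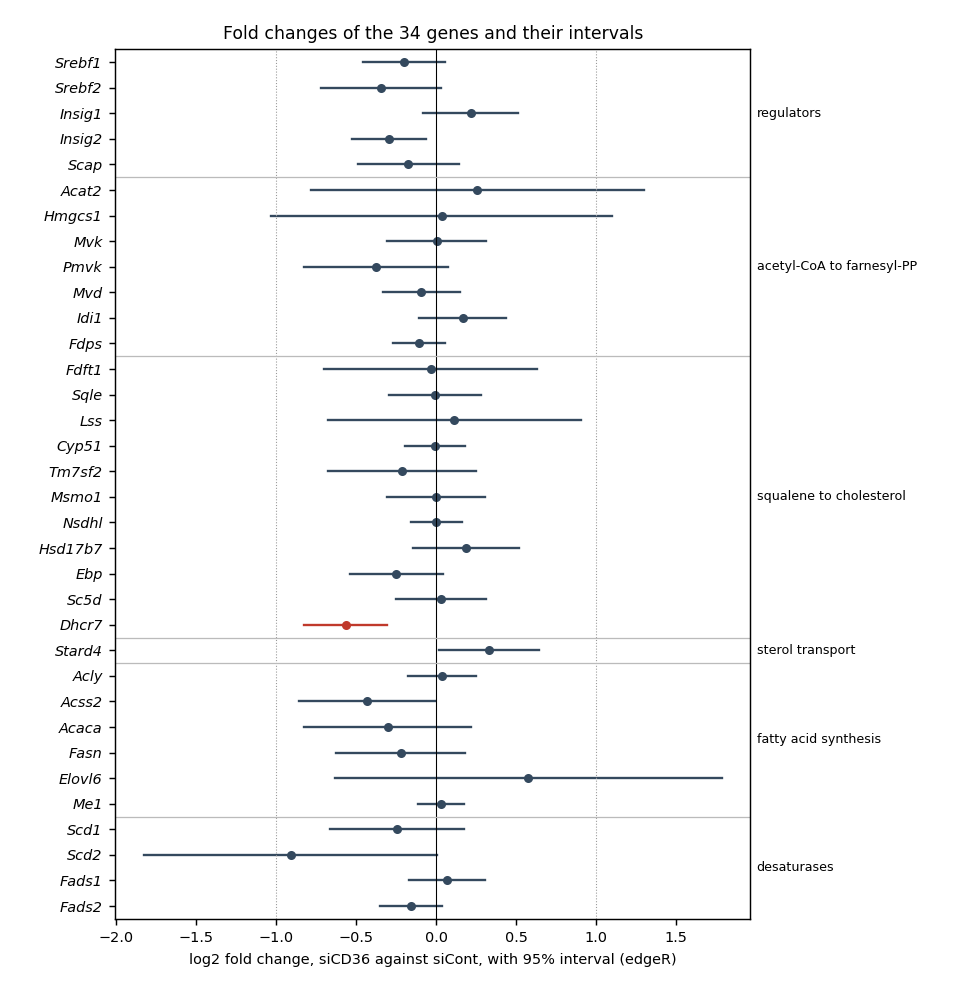
Log2 fold change of each gene, siCD36 against siCont (points), with its 95% interval from edgeR (lines), grouped by the step of the pathway, with red for an adjusted p under 0.05 and dotted lines at −1 and 1. Dhcr7 is the red gene at −0.57, and the intervals of Hmgcs1, Acat2, Elovl6 and Scd2 cross a dotted line.

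Dhcr7 (ENSMUSG00000058454, chr7:143823145-143848410, plus strand) reduces the immediate precursor of cholesterol, the same sterol from which skin makes vitamin D. Its level in CPM, counts scaled to the library size that TMM sets by the bulk of genes, was 43.3, 33.7 and 40.2 with siCD36 and 59.8, 58.8 and 55.0 with siCont. Every siCD36 sample was below every siCont sample, and the gap between the groups was wider than the range within siCont. The means were 39.1 ± 4.89 and 57.9 ± 2.54 CPM (SD, n = 3 each). On the log2 scale its fold change was −0.57 (SE 0.108, 95% interval −0.83 to −0.31, edgeR adjusted p = 0.0386 over all genes tested). Under the other settings tried it ran from −0.65 to −0.47, and it passed the threshold in 7 of 15. The call was lost without siCD36 replicate 2 or 3 or any one siCont replicate (adjusted p up to 0.147 in edgeR), without siCD36 and siCont replicate 1 together, without the low-level filter and with the replicate number as a block. The gene shares 0.126% of its 100-base stretches with other genes and overlaps none in the annotation.

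**Figure D3:**
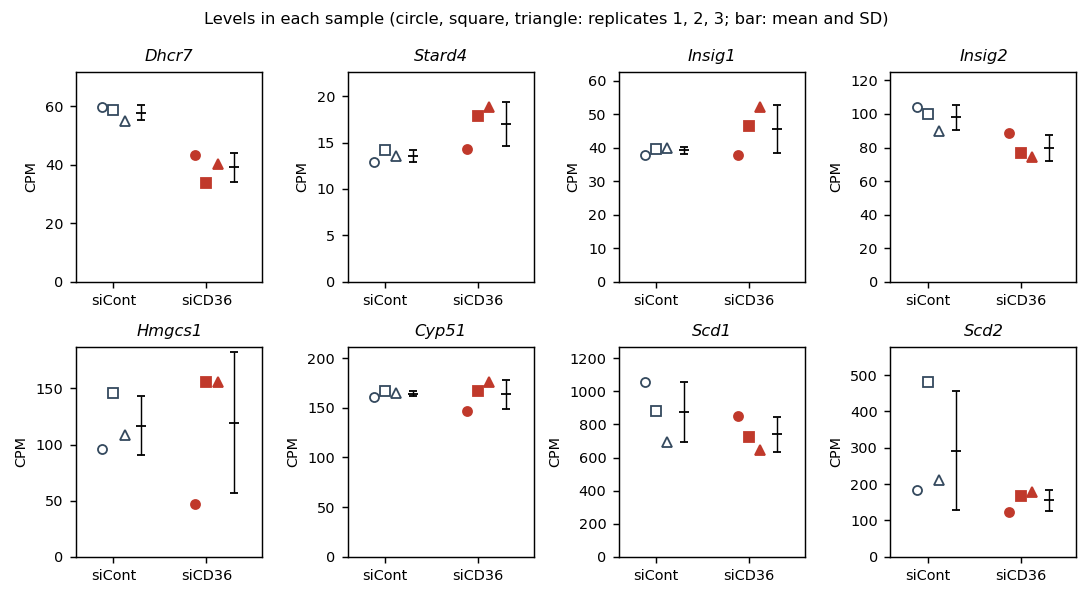
Level in CPM (counts scaled to library size, vertical axis from 0) of 8 genes in each sample of siCont (open) and siCD36 (filled), with circles, squares and triangles for replicates 1, 2 and 3 and bars for the mean and SD. Dhcr7 is clearly separated between the groups, Cyp51 is level, and 1 siCont sample of Scd2 stands at 481 CPM above the other 5.

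The regulators were measured at means of 5.33 FPKM (Srebf1) to 22.5 FPKM (Insig2). No member of this group passed the test, and 4 of 5 had a log2 fold change below 0. Srebf2 (chr15:82147181-82205379, plus strand), which encodes SREBP-2, had 175, 175 and 119 CPM with siCD36 and 187, 198 and 212 CPM with siCont. The siCD36 samples were all below the siCont samples, with replicate 3 well below the other siCD36 samples. Its log2 fold change was −0.35 (SE 0.156, edgeR adjusted p = 0.224), and −0.19 without siCD36 replicate 3. Srebf1 (chr11:60199089-60222581, minus strand), whose transcripts encode SREBP-1a and SREBP-1c and were counted as 1 gene, had 35.0, 32.8 and 27.4 CPM with siCD36 and 37.7, 36.6 and 35.5 CPM with siCont. The groups did not overlap, but siCD36 replicate 1 and siCont replicate 3 were close. This is a log2 fold change of −0.20 (SE 0.106, edgeR adjusted p = 0.285). Per length, Srebf1 stood well below Srebf2, with FPKM ratios of 0.255, 0.238 and 0.293 with siCD36 and 0.256, 0.235 and 0.213 with siCont (exact permutation test, two-sided, p = 0.3, adjusted p = 0.5 over 4 ratios, where the smallest p possible is 0.1).

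The INSIG genes, which encode the proteins that retain SCAP, had fold changes of opposite sign. Insig2 (chr1:121304353-121332589, minus strand), whose liver form in mice is known to answer to insulin, had 88.5, 76.6 and 74.4 CPM with siCD36 and 104, 100 and 89.6 CPM with siCont. The groups did not overlap, by a narrow margin. Insig2 thus had a log2 fold change of −0.30 (SE 0.0957, 95% interval −0.53 to −0.07, edgeR adjusted p = 0.123). Insig1, itself a classical SREBP target, had 37.9, 46.5 and 52.1 CPM with siCD36 and 37.9, 39.6 and 40.0 CPM with siCont. The siCont samples were tight and siCD36 replicate 1 lay at their lower end, with the other siCD36 samples above them. That of Insig1 was 0.22 (SE 0.123, edgeR adjusted p = 0.327). The Insig1 to Insig2 ratio in FPKM was 0.481, 0.681 and 0.787 with siCD36 and 0.408, 0.443 and 0.502 with siCont. The lowest siCD36 ratio was below the highest siCont ratio (exact permutation test, two-sided, p = 0.2, adjusted p = 0.5 over 4 ratios). Scap, the escort protein, had 53.5, 47.5 and 37.9 CPM with siCD36 and 54.7, 51.6 and 50.6 CPM with siCont (log2 fold change −0.18, edgeR adjusted p = 0.455). Its groups overlapped. Summed over the 5 regulators, the levels were 390, 379 and 311 CPM with siCD36 and 422, 426 and 428 CPM with siCont. The sums did not overlap, which was also so for 32.4% of single genes tested, and no regulator passed the test. Srebf2 alone made up 156 of a mean of 360 CPM with siCD36 and 199 of 425 CPM with siCont. The lowest sum was that of siCD36 replicate 3, where Srebf2 was also lowest. Insig1, within the sum, had a fold change in the other direction.

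From acetyl-CoA to farnesyl diphosphate, 7 members build the isoprenoid units that sterols are made of, and none passed the test. The highest per length was Fdps, which joins those units into farnesyl diphosphate, at a mean of 33.8 FPKM over the 6 samples, and the lowest was Mvk, mevalonate kinase, at 5.15 FPKM. Fdps had 159, 152 and 155 CPM with siCD36 and 179, 156 and 167 CPM with siCont, and Mvk 17.9, 13.5 and 15.6 CPM against 15.1, 15.2 and 16.7 CPM. Both overlapped between the groups. The following kinase, Pmvk, had 23.4, 18.2 and 16.1 CPM with siCD36 and 29.6, 24.4 and 20.9 CPM with siCont (log2 fold change −0.37, 95% interval −0.82 to 0.08, edgeR adjusted p = 0.268). Mvd, the decarboxylase, stood at 21.2 ± 1.78 and 22.6 ± 1.07 CPM (SD, n = 3 each). Idi1, the isomerase, shares 21.9% of its 100-base stretches with other genes. It stood at 60.7 ± 8.66 and 54.2 ± 1.67 CPM (SD, n = 3 each). These ranges overlap.

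Hmgcs1 and Acat2, the entry enzymes, varied more between samples of a group than between the groups. Hmgcs1 (chr13:119690379-119708260, plus strand), whose window holds the SRE core printed above, had 46.9, 156 and 156 CPM with siCD36 and 95.8, 146 and 108 CPM with siCont. The siCD36 samples thus held both the lowest value and the highest ones, 3.32-fold apart. The log2 fold change was 0.03 with an SE of 0.443 (edgeR adjusted p = 0.971), and it was 0.42 without siCD36 replicate 1 and −0.21 without siCD36 replicate 2. Acat2, which joins acetyl-CoA units, had 20.0, 45.5 and 46.7 CPM with siCD36 and 18.4, 28.4 and 47.1 CPM with siCont. Each group held low and high samples (log2 fold change 0.26, SE 0.433, edgeR adjusted p = 0.756). Acat2 shares 28.9% of its 100-base stretches with other genes, chiefly its near copy Acat3 and its neighbour Tcp1, and Hmgcs1 shares 8.22%, so part of their counts may depend on how reads were assigned. Acat3 held 6.31 to 6.66 CPM with siCD36 and 2.89 to 4.90 CPM with siCont. The sums over the 7 genes were 342, 467 and 478 CPM with siCD36 and 417, 445 and 436 CPM with siCont, and they overlapped.

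**Figure D4:**
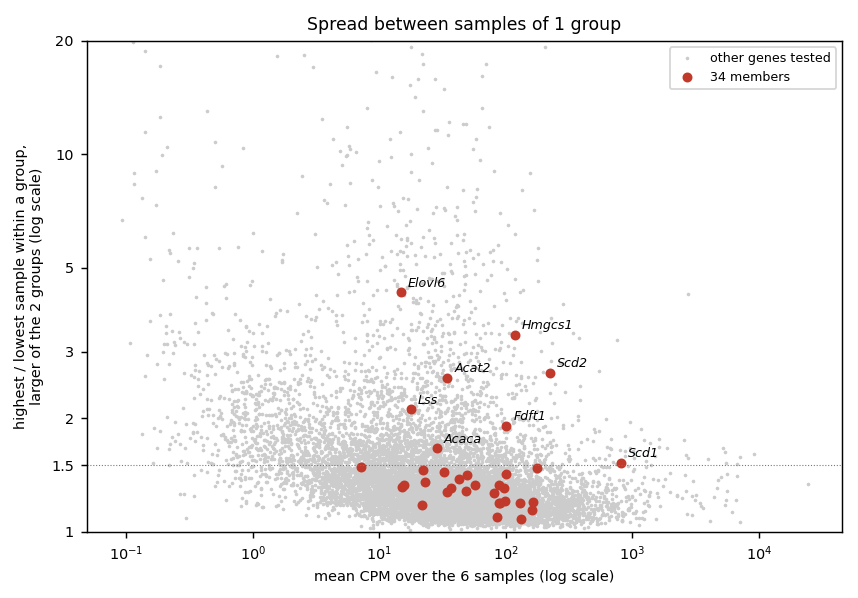
Ratio of the highest to the lowest sample within a group, taking the larger of the 2 groups (vertical log axis, shown from 1 to 20), against the mean level of the gene in CPM (horizontal log axis), for the 34 genes (red) and the other genes tested (grey). The dotted line marks 1.5, which 8 of the 34 genes exceed, with Elovl6 at 4.31 and Hmgcs1 at 3.32 the highest.

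Such spread was not general in the set. The ratio of the highest to the lowest sample of a group, taking the larger of the groups, had a median of 1.33 over the 34 genes and 1.28 over all genes tested. It exceeded 1.5 for 8 members (23.5%), namely Elovl6, Hmgcs1, Scd2, Acat2, Lss, Fdft1, Acaca and Scd1, and for 26.1% of all genes. Replicate 1 was the lowest of its group for 19 members in siCD36 (55.9%, against 39.9% of all genes tested) and for 17 in siCont (50.0%, against 35.4%). It was the highest for 13 (38.2%, against 40.5%) and 12 (35.3%, against 39.3%). In both groups it was the lowest for 14 members (41.2%, against 18.4% of all genes), among them Hmgcs1, Acat2, Lss, Elovl6 and Scd2. Nothing in the labels sets these libraries apart, and the cause was not tested. With both number 1 libraries left out, a choice made after the data were seen, the members' median was −0.05 and no member passed the test.

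From squalene to cholesterol, 11 members carry out the later steps, and Dhcr7 was the one of them that passed the test. The median log2 fold change of the group was −0.00672, and 9 of its 11 genes lay within 0.25 of 0. Ebp, an isomerase of the sterol ring, was the highest per length at a mean of 33.8 FPKM, and Tm7sf2, a sterol reductase, the lowest at 1.42 FPKM. Ebp had 94.6, 77.0 and 71.0 CPM with siCD36 and 104, 89.4 and 95.6 CPM with siCont (log2 fold change −0.25, edgeR adjusted p = 0.251). In siCD36, 1 sample reached into the siCont range. Tm7sf2 stood at 6.63 ± 0.866 and 7.70 ± 1.56 CPM (SD, n = 3 each), and shares 7.92% of its stretches with its neighbour Vps51.

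Cyp51, the demethylase that azole drugs target in fungi, had 147, 167 and 176 CPM with siCD36 and 161, 166 and 165 CPM with siCont. The siCont samples differed by a few CPM and the siCD36 samples lay on either side of them (log2 fold change −0.01, SE 0.0780, edgeR adjusted p = 0.967). Nsdhl, which like Cyp51 takes part in removing methyl groups, was as level, at 85.7 ± 3.02 and 85.6 ± 4.16 CPM (SD, n = 3 each). Sqle, the rate-limiting squalene epoxidase, stood at 97.3 ± 13.4 and 97.8 ± 9.42 CPM (SD, n = 3 each). Neither passed the test, with log2 fold changes of 0.00130 and −0.00694.

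The other steps likewise overlapped between the groups. Msmo1, a methyl sterol oxidase, stood at 81.3 ± 9.73 and 81.5 ± 10.7 CPM, Hsd17b7, a sterol ketone reductase, at 24.7 ± 3.66 and 21.7 ± 1.96 CPM, and Sc5d, a desaturase of the sterol ring, at 37.3 ± 5.36 and 36.6 ± 0.792 CPM (siCD36 and siCont, SD, n = 3 each). Fdft1, squalene synthase, had 73.2, 86.8 and 140 CPM with siCD36 and 91.9, 131 and 84.0 CPM with siCont. In each group 1 sample was high. Fdft1 overlaps Ctsb, a lysosomal protease gene on the other strand with 1231 to 1571 CPM, and shares 18.4% of its stretches with other genes. Lss, which closes the sterol rings, had 11.7, 19.0 and 24.7 CPM with siCD36 and 11.6, 17.9 and 21.7 CPM with siCont. Each group ran over nearly the same range. The sums over the 11 genes were 683, 708 and 813 CPM with siCD36 and 748, 786 and 771 CPM with siCont.

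Stard4, which carries cholesterol between membranes and is an SREBP-2 target, was the member whose samples were all higher with siCD36. It had 14.3, 17.9 and 18.8 CPM with siCD36 and 12.9, 14.2 and 13.5 CPM with siCont. The lowest siCD36 sample and the highest siCont sample nearly touched. For Stard4 the log2 fold change was 0.33 (SE 0.130, 95% interval 0.02 to 0.64, edgeR adjusted p = 0.177). It passed the threshold without siCD36 replicate 1 (0.44, edgeR adjusted p = 0.0484) and under none of the other 14 settings.

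Of the 6 genes of fatty acid synthesis and its precursors, none passed the test. Me1, the malic enzyme that supplies NADPH, was the highest per length at 30.4 FPKM and among the most level members, with 128, 134 and 139 CPM with siCD36 and 127, 130 and 135 CPM with siCont (log2 fold change 0.03, SE 0.0591, edgeR adjusted p = 0.803). Acaca, the acetyl-CoA carboxylase that commits carbon to fatty acids, was the lowest at 1.48 FPKM, with 18.1, 28.5 and 30.1 CPM with siCD36 and 26.4, 35.8 and 32.5 CPM with siCont (−0.30, edgeR adjusted p = 0.427). Its groups overlapped. It shares 23.7% of its stretches, mostly with the pseudogene Gm5182, which held 6.73 to 9.38 CPM with siCD36 and 9.94 to 14.5 CPM with siCont.

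Acly, which makes cytosolic acetyl-CoA from citrate, was level at 132 ± 8.93 and 128 ± 11.2 CPM (SD, n = 3 each). Acss2, which makes it from acetate, had 33.7, 26.2 and 23.4 CPM with siCD36 and 44.5, 35.4 and 32.4 CPM with siCont. In siCD36, 1 sample lay within the siCont range. The log2 fold change was −0.43 (SE 0.178, 95% interval −0.86 to −0.01, edgeR adjusted p = 0.192). Acss2 overlaps Gss on the other strand along 13800 bases, and Gss was counted at 3625 to 5117 reads. Fasn, fatty acid synthase, had 76.3, 99.1 and 104 CPM with siCD36 and 91.8, 104 and 131 CPM with siCont (−0.22, edgeR adjusted p = 0.456), with overlapping groups. Elovl6, which lengthens palmitate, had 13.8, 18.4 and 20.9 CPM with siCD36 and 3.92, 14.8 and 16.9 CPM with siCont. Its positive fold change followed 1 low sample, since the log2 value of 0.57 (SE 0.503, edgeR adjusted p = 0.521) was 0.16 without siCont replicate 1.

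The desaturases put double bonds into fatty acids. Scd1, the stearoyl-CoA desaturase, was by far the most abundant member per length, at a mean of 145 FPKM, with Scd2 the next at 36.2 FPKM and Fads1 the lowest of the 4 at 18.1 FPKM. Scd1 had 851, 725 and 644 CPM with siCD36 and 1058, 881 and 695 CPM with siCont. The ranges overlapped, and the log2 fold change was −0.25 (SE 0.174, edgeR adjusted p = 0.426). Scd2 (chr19:44293674-44306864, plus strand), its neighbour on the chromosome and the form known from mouse brain, had 122, 166 and 178 CPM with siCD36 and 182, 481 and 213 CPM with siCont. The groups did not overlap, but siCont replicate 2 stood far above every other sample and the closest samples of the groups were siCD36 replicate 3 and siCont replicate 1. The log2 fold change of −0.91 (SE 0.381, 95% interval −1.82 to 0.01, edgeR adjusted p = 0.199) became −0.34 without that sample (edgeR adjusted p = 0.366). The Scd1 to Scd2 ratio in FPKM was 7.76, 4.87 and 4.04 with siCD36 and 6.48, 2.04 and 3.65 with siCont (exact permutation test, two-sided, p = 0.4, adjusted p = 0.5 over 4 ratios). Scd1 shares 2.58% of its stretches with its family and Scd2 0.879%.

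Fads1 and Fads2, which desaturate polyunsaturated fatty acids, lie side by side on chromosome 19 and did not pass the test. Fads1 stood at 101 ± 7.78 and 96.3 ± 10.1 CPM and Fads2 at 85.2 ± 7.41 and 94.9 ± 3.13 CPM (siCD36 and siCont, SD, n = 3 each), with log2 fold changes of 0.07 and −0.16. Summed over all 34 genes, levels were 2965, 3090 and 3099 CPM with siCD36 and 3435, 3666 and 3249 CPM with siCont, which do not overlap. With Scd1 and Scd2 left out, the sums were 1992, 2199 and 2277 CPM against 2194, 2304 and 2341 CPM, which overlap.

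Around the set, 66 further genes of SREBP processing, the sterol and isoprenoid branches, sterol transport and fatty acid elongation were listed, and 50 were tested. Of these, 2 were higher with siCD36 and 2 lower, beside 2.20% higher and 3.06% lower among all genes, and 14 had an unadjusted p under 0.05, beside 25.4%. These shares lie near those of all genes. The median log2 fold change of the 50 was −0.0137. None of 9 tested genes of SREBP processing and turnover and none of 15 of sterol transport, storage and the LXR pathway passed the test in edgeR with the condition as the only term, with 3 and 2 of them at an unadjusted p under 0.05. In DESeq2, which called 14.2% of all genes tested, 3 genes of these groups passed, Rnf139, Erlin2 and Osbpl2. With the replicate block, edgeR called Ube2g2, a ubiquitin-conjugating enzyme (log2 fold change −1.04, adjusted p = 0.0485). These genes were named after their values were seen.

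Among 12 tested genes of the sterol and isoprenoid branches, 2 were higher. Pggt1b, the subunit that gives the enzyme that adds geranylgeranyl groups to proteins its specificity, had 49.7, 57.1 and 59.4 CPM with siCD36 and 37.6, 32.8 and 36.6 CPM with siCont (log2 fold change 0.63, SE 0.0983, edgeR adjusted p = 0.0265). Nus1, a subunit of the enzyme that makes the dolichol chain, had 65.3, 70.2 and 71.6 CPM with siCD36 and 49.9, 55.3 and 55.0 CPM with siCont (0.37, SE 0.0767, edgeR adjusted p = 0.0471). Both use isoprenoids that branch off at or before farnesyl diphosphate, and in both every siCD36 sample was above every siCont sample. Of 14 tested genes of elongation and lipogenic control, Fads6, a member of the desaturase family by sequence, was lower, with 9.62, 7.33 and 8.81 CPM against 13.3, 14.4 and 12.6 CPM (−0.64, SE 0.133, edgeR adjusted p = 0.0472). In DESeq2, again beside 14.2% of all genes, 2 more genes of this group passed, named here after their values were seen. These were Hacd1 with a log2 fold change of 0.47 and Tecr with −0.44 in edgeR. Of the 66 genes, filterByExpr also called Acacb, which lay below 1 FPKM, beside 3.44% of all genes tested there. Without siCD36 replicate 1, Fads3 and Acat1 were also called, beside 9.16% of all genes. These genes were likewise named after their values were seen. Pggt1b, Nus1 and Fads6 kept their sign under every setting tried. Each kept its call without siCD36 replicate 1 and lost it without any other single library and with the replicate block. Nus1 and Fads6 also lost it without the FPKM filter, with filterByExpr, with limma on log2(FPKM + 1) and log2(FPKM + 0.1), and without both number 1 libraries.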

How the data were processed

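Per the methods, the authors mapped reads with HISAT, derived expression with StringTie and compared groups with edgeR. They deposited raw counts for each gene (whole numbers, not normalized). The deposited FPKM values were scaled by the authors for gene length and depth. How reads were counted is not given in the sources used here, and neither are the strand setting, annotation and build. Gene positions are those of the deposited table, whose gene IDs match GENCODE M21 on GRCm38. Counts of genes reaching a mean of 1 FPKM were fitted with edgeR 4.0.16 in R 4.3.3 (TMM, glmQLFit and glmQLFTest, condition only), with Benjamini-Hochberg adjustment over the 11796 genes. CPM are counts over TMM-scaled library size. Alternatives used other scalings, filters, DESeq2 1.42.0, limma 3.58.1 on log2(FPKM + 1) and log2(FPKM + 0.1), the replicate block and each library left out. Leaving out both number 1 libraries was added after the data were seen. The fit was tested on simulated data. Every pair of libraries differed by more than sampling noise (chi-square per gene of 74.07 or more).

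The members and lists were chosen with earlier results of these data known. Every member is named with its levels. Values of every sample are given for members that passed the test or whose groups did not overlap, for the regulators and for the highest and lowest member per length in each class, and for further members whose samples spread widely, which were picked after their values were seen. Of the 66 related genes, those with an adjusted p under 0.05 are named. Some results that this rule selects, and 1 of 4 ratios computed, are not reported here and remain in the counts. Sequence stretches shared with other genes were counted on GENCODE transcripts, as distinct runs of 100 bases.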

Additional observations from a re-analysis of the deposited data

How the results depend on the processing

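No called gene of the set reversed under any alternative tried, and the members' median was within the range from −0.11 to 0.000757. Without the FPKM filter, 116 genes were higher and 211 lower with siCD36, with 0 members lower. With DESeq2, 768 were higher and 909 lower. With the replicate block, 56 were higher and 143 lower, with 0 members lower, and without the number 1 libraries 0 members were lower. Deviations of same-numbered samples correlated at 0.143, −0.0341 and 0.0448, and those of differently numbered samples at −0.12 to 0.0933. The numbers were not taken to pair the samples, and these values do not settle whether they do. With the block, 10 members had an unadjusted p under 0.05 in edgeR, beside 4 without it. The share of all genes at that unadjusted threshold was not counted with the block, so the 10 has no background to be read against. At an adjusted p under 0.05, edgeR called 1.69% of all genes with the block, beside 5.26% without it. With the block, Acss2 had an adjusted p of 0.0629 in edgeR and Pmvk 0.0924, beside 0.192 and 0.268 without the block. Leaving out each library in turn gave 5 to 431 higher and 15 to 650 lower genes, 0 to 1 members higher, 0 to 1 members lower, and a members' median of −0.108 to −0.0417. Without siCD36 replicate 1, 1081 genes were called in all, and 20 to 144 without any other single library. The cause was not tested. The other scalings, filterByExpr and limma kept the call of Dhcr7 and added none. Uncalled members changed sign, up to 6 of them in 1 setting, among them Acat2 (0.26, and −0.01 without siCont replicate 1). Genes with few counts are the most limited by depth, and the lowest count of a member in a library was 224 (Elovl6).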
